A study of Caenorhabditis elegans with 2 samples.

Results

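The 40 genes described here carry the names of the zona pellucida (ZP) domain family of apical matrix proteins in the nematode Caenorhabditis elegans. They were chosen by symbol from 19973 nuclear protein-coding genes of the Ensembl WBcel235 annotation. Every gene named cut or cutl with a number was taken, together with noah-1, noah-2, fbn-1, let-653 and dyf-7. Of these genes, 8 lie on chromosome I, 9 on II, 5 on III, 7 on IV, 5 on V and 6 on X. Binding of the transcription factor ELT-3 was measured around them by ChIP-seq in whole larvae of the L1 stage, in 1 group of 2 biological replicates. The larvae were strain OP75, which has the unc-119(ed3) mutation and the integrated transgene wgIs75, so that ELT-3 is made with GFP and FLAG at its C-terminus. Both replicates share this genotype, both sexes were pooled, the age within the stage is unknown, and chromatin was sheared by sonication. The tagged transgene and the use of whole animals limit the model, since the epidermis is 1 tissue among many in such a sample. The control used in peak calling was not analysed here, and no other genotype, stage or tissue was compared. No test was run: counts of the 40 genes are set beside the same counts over all 19973 genes.

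ZP proteins are secreted or membrane-anchored proteins that polymerise on the outer side of epithelia. In the nematode they build the cuticlins of the alae, which are ridges along the body, and the precuticle laid down before each cuticle, and they line narrow tubes and sense organs. ELT-3 is a GATA factor of the epidermis, known from hypodermal cells other than the lateral seam cells that make the alae. GATA factors read short sites with the letters GATA at their core, and cuticle genes are among the genes such factors are known to serve.

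Each gene was looked up in the IDR set, the pooled list, the list of replicate 1 and the list of replicate 2, all on the ce11 build. The IDR set keeps peaks that rank reproducibly between replicates and is the shortest, while the pooled list holds 30000 peaks, replicate 1 17087 and replicate 2 7079. The 3 longer lists are peaks and background by their own label, so a low-ranked entry may be no more than background. The authors' signal value of a peak ran from 46.2 to 281 in the IDR set, from 14.2 to 389 in the pooled list, from 7.6 to 147 in replicate 1 and from 15.5 to 247 in replicate 2. These scales differ, so ranks were read within a list, with rank 1 the highest signal. The window of a gene began 3000 bp before its annotated 5′ end and closed 1000 bp after it, and a gene was counted for a list with a summit there. Of the IDR peaks, 905 were overlapped by a peak in each replicate and 21 (2.07%) by none in either.

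The sequences below are the reference bases (ce11, which is WBcel235) at the summits on which the results turn. In the first 4, which reach 50 bases to each side of a summit, capitals mark WGATAR, where W is A or T and R is A or G, on either strand. They show the IDR peak of cut-2 (chrV:13413433-13413533, plus strand), the pooled peak at the start of fbn-1 (chrIII:7625261-7625361, plus strand), and the pooled peaks of cutl-12 (chrII:8634088-8634188, minus strand) and cutl-17 (chrIV:9459255-9459355, minus strand), which had overlapping peaks in both replicates.
cut-2: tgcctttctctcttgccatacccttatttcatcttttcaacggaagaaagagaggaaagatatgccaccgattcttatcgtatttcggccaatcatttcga
fbn-1: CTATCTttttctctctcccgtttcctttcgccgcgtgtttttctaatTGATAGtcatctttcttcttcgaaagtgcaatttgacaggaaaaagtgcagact
cutl-12: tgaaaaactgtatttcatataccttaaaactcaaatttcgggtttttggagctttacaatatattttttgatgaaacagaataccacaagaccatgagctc
cutl-17: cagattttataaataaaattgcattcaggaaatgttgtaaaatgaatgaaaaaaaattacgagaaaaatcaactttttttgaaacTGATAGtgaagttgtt
In the other 3, capitals mark an annotated gene for a small RNA that lies at the summit. They are the peak in an intron of cutl-18 (chrV:11314152-11314342, plus strand) with a snoRNA gene, the peak upstream of cutl-23 (chrIII:5769858-5769995, plus strand) with a tRNA-Leu gene, and the peak upstream of cutl-28 (chrIV:682957-683144, plus strand) with a tRNA-Asp gene.
cutl-18: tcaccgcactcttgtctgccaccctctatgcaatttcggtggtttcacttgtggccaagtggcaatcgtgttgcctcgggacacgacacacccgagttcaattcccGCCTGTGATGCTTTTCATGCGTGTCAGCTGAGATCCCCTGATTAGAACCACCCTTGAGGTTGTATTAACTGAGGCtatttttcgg
cutl-23: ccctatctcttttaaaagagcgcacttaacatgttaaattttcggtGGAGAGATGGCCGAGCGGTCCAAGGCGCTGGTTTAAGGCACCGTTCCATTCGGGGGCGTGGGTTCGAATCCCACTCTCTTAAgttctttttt
cutl-28: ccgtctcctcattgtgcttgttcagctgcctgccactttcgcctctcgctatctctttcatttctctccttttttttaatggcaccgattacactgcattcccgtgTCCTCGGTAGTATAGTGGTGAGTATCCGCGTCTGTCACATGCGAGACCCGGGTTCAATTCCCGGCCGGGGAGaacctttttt
The cutl-12 and cut-2 stretches hold no WGATAR, the cutl-17 stretch holds 1, and the fbn-1 stretch holds 2, of which 1 sits at the summit itself.

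In the IDR set and an equally large pooled set, the share of ZP-family genes reached could not be told apart from that of all genes. cut-2 alone among the members had an IDR summit in its window, which is 1 of 40 genes or 2.5% (exact 95% interval 0.0633 to 13.2%), against 4.47% of all protein-coding genes. A second set of the same size was cut from the top of the pooled list, and none of the 40 had one of its summits (0%, interval 0 to 8.81%), against 5.14% of all genes. Both shares were below the background, whose value is inside the members' interval, so 40 genes are too few to separate them from it. The intervals cover counting error over genes only, and read depth is unknown because the lists hold no read counts.

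At rank 3000 or better, 1 of the 40 genes had a pooled summit (2.5%, interval 0.0633 to 13.2%), against 13.3% of all genes. In replicate 1 none of the 40 did (0%, interval 0 to 8.81%), against 13.1% of all genes. In replicate 2 there were 3, namely cut-2, cutl-23 and cutl-28 (7.5%, interval 1.57 to 20.4%), against 13.3% of all genes. The member shares were therefore below the background in all 3 lists at this depth, and in replicate 2 the background lay inside the interval.

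With all ranks admitted, the shares of members and of all genes were close. A pooled summit lay in the window of 31 of the 40 genes (77.5%, interval 61.5 to 89.2%), against 71.9% of all genes. A replicate 1 summit lay in 20 windows (50%, interval 33.8 to 66.2%), against 50.8% of all genes, and a replicate 2 summit in 11 windows (27.5%, interval 14.6 to 43.9%), against 26.1% of all genes. These shares are near the background and are no result about the family.

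Where members had summits, the median of their best ranks stood lower in each list than that of all genes with a summit. In the pooled list the median best rank was 12574 for the 31 members and 10677 for the 14365 genes at large, and the best member rank was 2106. In replicate 1 the medians were 8402.5 for the members and 6955.5 for all genes with a summit, with a best member rank of 3913. In replicate 2 they were 5190 for the members and 2934.5 for all genes with a summit, with a best member rank of 1479. As a share of the list length, the member medians stood at 41.9%, 49.2% and 73.3%, and those of all genes at 35.6%, 40.7% and 41.5%.

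**Figure D1:**
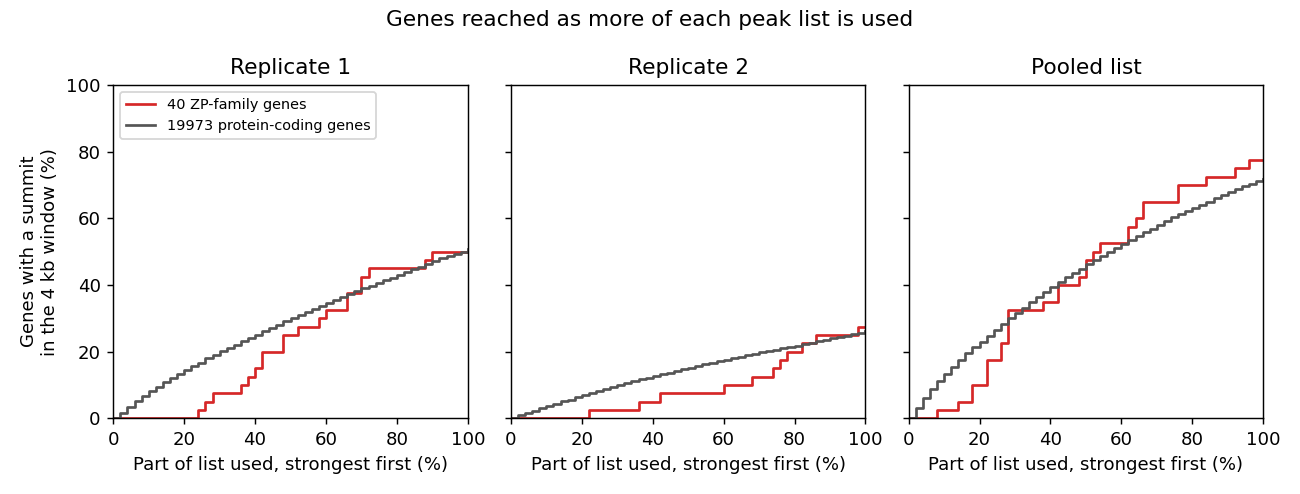
Share of the 40 ZP-family genes (red) and of the 19973 protein-coding genes (grey) with a summit in the window, in percent, as more of each list is used from its strongest peak down. With the strongest 20% of the list used, the shares were 0% of members and 14.5% of all genes in replicate 1, 0% of members and 6.99% of all genes in replicate 2, and 10% of members and 23% of all genes in the pooled list. In the pooled list the red curve crosses the grey one and ends above it, at 77.5% of members against 71.9% of all genes.

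Few members had peaks in the window that both replicates shared. A summit of each replicate lay in the window of 6 genes, cut-4, cutl-1, cutl-11, cutl-12, cutl-17 and cutl-20 (15%, interval 5.71 to 29.8%), against 21.3% of all genes. In 2 of the 6, cutl-12 and cutl-17, the peak of a replicate 1 summit in the window overlapped a replicate 2 peak (5%, interval 0.611 to 16.9%), against 17.5% of all genes. In the other 4 the replicates' summits lay at different places in the window. The count starts from replicate 1. It leaves out cut-2, where the peak of a replicate 2 summit in the window overlapped a replicate 1 peak with its summit outside. A further 14 members had a summit in replicate 1 and none in replicate 2, 5 had one in replicate 2 and none in replicate 1, and 15 had none in either. No summit of any list lay in the windows of cut-3, cut-6, cutl-9, cutl-25 and noah-2. The counts of members with a summit in 1 replicate alone, or in none, were not made over all genes. They are therefore no result about the family, and the replicate lists also differ in length.

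**Figure D2:**
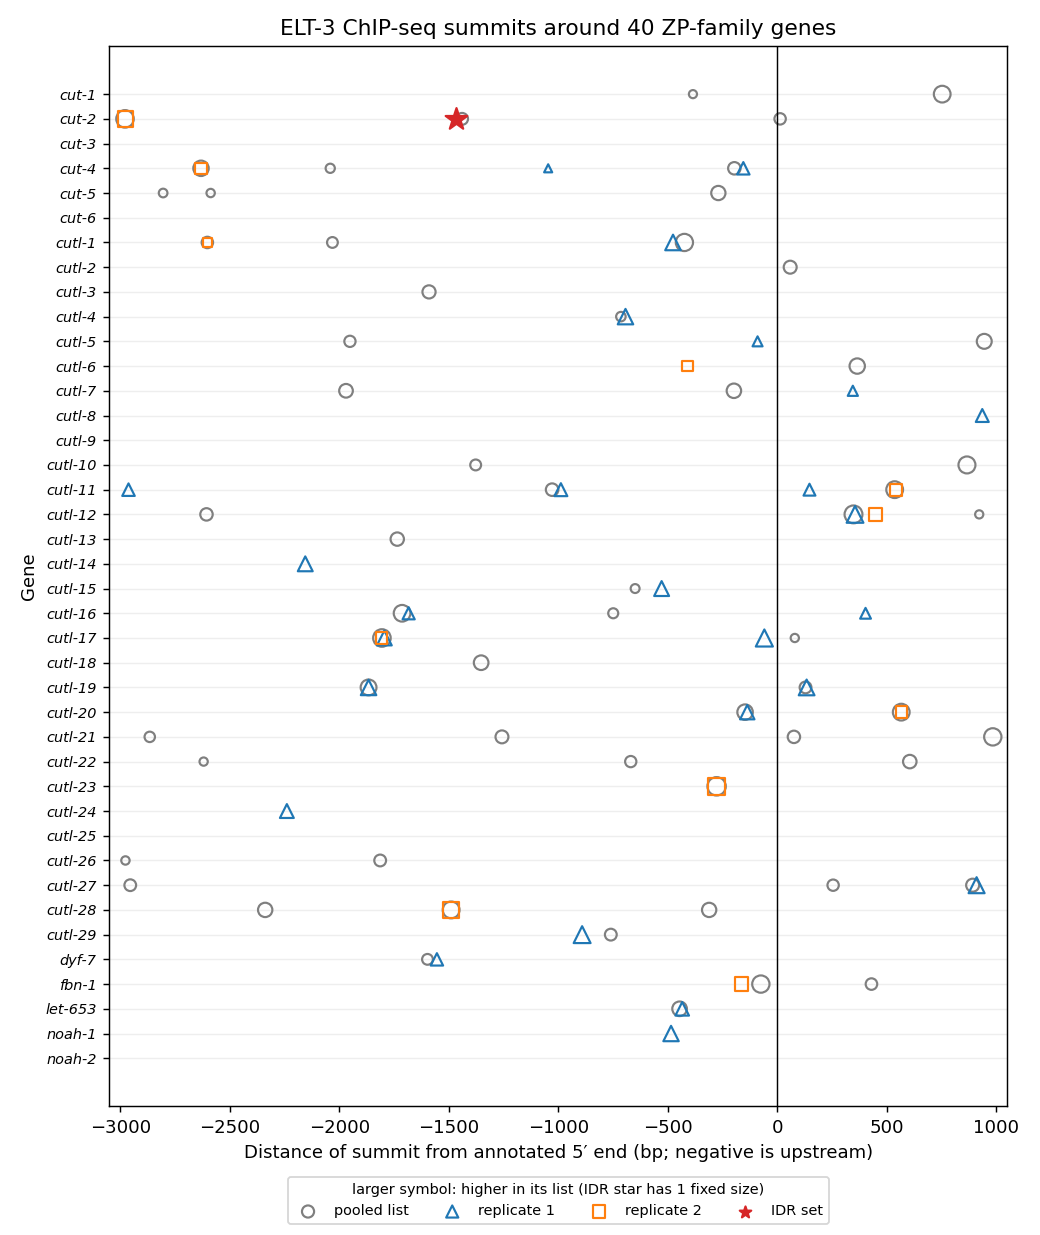
Every summit of the 4 lists in the windows of the 40 genes, 1 row per gene, by distance from the annotated 5′ end in bp (negative is upstream); larger open symbols rank higher in their list. The single IDR star is at cut-2, 5 rows are empty, and triangles (replicate 1) seldom coincide with squares (replicate 2).

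The protein sequences behind these names were translated from the annotated coding sequences to check the label. ZP domains are held together by disulfide bonds between conserved cysteines, and many ZP proteins end in a hydrophobic membrane anchor. The 40 proteins were 215 to 2781 residues long, with a median of 457.5. A hydrophobic stretch of 19 residues, at a mean Kyte-Doolittle value of at least 1.6, lay within the last 100 residues of 33 of them. Cysteines numbered from 9 to 210 in the 39 proteins other than CUT-2, with a median of 15. CUT-2 stood apart, with 215 residues, 6 cysteines, 27.9% alanine and 15.3% proline, while alanine was 3.02 to 12.5% in the other 39. It had no hydrophobic end by this cut (0.64), as was also the case for cutl-14, cutl-19, cutl-21, cutl-23, cutl-26 and let-653. Of these, cutl-19 fell just short, at 1.56. Only the longest annotated coding sequence of each gene was scored. CUT-2 is known as a cuticlin without a ZP domain, so the 1 member with an IDR summit is in the group by its name.

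cut-2 (WBGene00009983, chrV:13414949-13416064, plus strand) encodes a repeat-rich structural protein of the insoluble cuticle. Its IDR peak (chrV:13413355-13413610) lay between genes with its summit 1466 bp upstream, and its signal was 48.9, which is rank 905 or 89.3% of the way down the set, whose median signal was 61.1. No WGATAR lay within 100 bp of that summit; the nearest was 365.5 bp away. The same place was weak in the longer lists. The overlapping pooled peak had a signal of 15.9 and rank 22328 of 30000, and no peak of either replicate overlapped the IDR peak, which placed it among the 21 IDR peaks of that kind. A stronger entry lay at the far edge of the window, where the pooled summit 2978 bp upstream had a signal of 25.4 and rank 5324, and the replicate 2 summit 2975 bp upstream had a signal of 21.9 and rank 2963. The nearest 5′ end to the edge summits was that of F53F1.4, 894 bp from the pooled and 897 bp from the replicate 2 summit. A replicate 1 peak of rank 10533 overlapped the replicate 2 one there, with its own summit outside the window. A pooled summit of rank 23362 lay 13 bp downstream of the start, in the 5′ UTR.

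The cuticlins proper had low-ranked peaks or none. CUT-1 and CUT-6 are known from the dauer larva, CUT-3 and CUT-5 from the alae of the L1 larva. cut-3 (WBGene00009041, chrII:8445169-8446831), the L1 cuticlin gene, and cut-6 (WBGene00000853, chrIII:10911460-10916665) had no summit in the window in any list. cut-5 (WBGene00011104, chrX:10333858-10338200), which acts in the L1 and the dauer alae, had pooled summits only, of rank 15867 at 269 bp upstream with a signal of 17.9, and of ranks 29522 and 28970 further up, inside R07E3.1. cut-1 (WBGene00000851, chrII:11269122-11271660) had pooled summits only, of rank 29931 at 385 bp upstream and rank 8107 at 753 bp downstream in an intron, with a signal of 22.1. So neither gene of the L1 alae had a peak in either replicate. cut-4 (WBGene00008482, chrII:10436136-10440087) had replicate 1 summits of ranks 11878 and 17079 at 155 and 1046 bp upstream, and a replicate 2 summit of rank 5470 at 2631 bp upstream. Of its pooled peaks, that of rank 12390 at 2631 bp upstream overlapped the replicate 2 peak, that of rank 20821 at 196 bp upstream overlapped a replicate 1 peak, and that of rank 27952 at 2041 bp upstream overlapped neither.

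Among the precuticle genes, fbn-1 had the summits closest to a start. FBN-1, a large fibrillin-related protein that holds the embryonic epidermis against mechanical strain, is the longest member, with 2781 residues and 210 cysteines from a gene of 15693 bp (WBGene00022816, chrIII:7625386-7641078, plus strand). Its pooled summit lay 75 bp upstream with a signal of 24.2 and rank 6117, on 1 of the 2 WGATAR matches printed above. The replicate 2 summit lay 163 bp upstream with a signal of 18.6 and rank 4231, and overlapped the pooled peak. Replicate 1 had no summit in the window, although it had 4 inside the gene further down, the highest of rank 3501 at 12568 bp in a coding exon. The replicates therefore pointed to different parts of fbn-1. noah-1 (WBGene00016422, chrI:5874416-5878958), whose product is part of the embryonic precuticle, had a replicate 1 summit of rank 7114 at 485 bp upstream with a signal of 10.2 and nothing in the window in the other lists. noah-2 (WBGene00009926, chrIV:14091254-14096626), which acts in the same layer, had none in its window in any list, and a pooled summit of rank 25158 in a coding exon 2816 bp downstream.

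The genes of tubes and sense organs had replicate 1 and pooled entries in the lower ranks. LET-653 lines the lumen of the excretory duct and the vulva. let-653 (WBGene00002827, chrIV:11885613-11891082) had a pooled summit of rank 14822 at 446 bp upstream, with a signal of 18.3, and a replicate 1 summit of rank 10117 at 434 bp upstream, with a signal of 9.14. DYF-7 anchors the dendrite tips of sensory neurons during elongation. dyf-7 (WBGene00001123, chrX:9698659-9701732) had a pooled summit of rank 24785 at 1597 bp upstream, with a signal of 15.3, and a replicate 1 summit of rank 11945 at 1554 bp upstream, with a signal of 8.65. Replicate 2 had no summit in either window.

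Among the cuticlin-like genes, whose individual roles are mostly not described, cutl-12 and cutl-17 had overlapping replicate peaks in the window. Beyond the window, replicate peaks also overlapped at cutl-11, cutl-18 and cutl-29. All cutl genes given singly were chosen after their values were seen. cutl-12 (WBGene00011928, chrII:8630693-8634486) had an intronic summit of rank 4041 at 348 bp downstream in the pooled list (signal 28.7), of rank 4510 at 355 bp in replicate 1 (signal 11.9) and of rank 4727 at 450 bp in replicate 2 (signal 17.8). cutl-17 (WBGene00009541, chrIV:9449125-9457500) had a summit 1805 bp upstream of rank 5117 in the pooled list (signal 25.9) and of rank 5676 in replicate 2 (signal 16.7), and 1794 bp upstream of rank 8099 in replicate 1 (signal 9.83). That place is closer to copb-2, whose 5′ end was 426 bp from the pooled summit. cutl-17 also had the highest-ranked replicate 1 summit in any member window, of rank 3913 at 59 bp upstream (signal 12.5), which no replicate 2 summit matched. The pooled peak that overlapped it was near the floor of its list, with rank 29715 of 30000 and a signal of 14.2. In cutl-1, cutl-11 and cutl-20 the replicate 1 summits were at 476, 988 and 137 bp upstream and the replicate 2 summits at 2602 bp upstream, 540 bp downstream and 567 bp downstream, taking the highest-ranked of each; the cutl-1 summits lay nearest to the starts of F53F1.2 and F53F1.3.

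The highest-ranked summits at the family's loci lay at genes for small RNAs. snoRNAs guide the modification of other RNAs, and tRNAs and some snoRNAs are transcribed by RNA polymerase III. cutl-18 (WBGene00009830, chrV:11313362-11316901, minus strand) held a summit 2699 bp downstream of its 5′ end, outside the window and in an intron, of rank 615 in the pooled list (signal 72.4) and rank 412 in replicate 1 (signal 33.1). In replicate 2 it was 2737 bp downstream, of rank 1001 (signal 37.9). This was the 1 place at a member of rank 3000 or better in both replicates, and it was not in the IDR set. The snoRNA gene T03F7.8 (WBGene00045071, chrV:11314258-11314332), of 75 bp and on the opposite strand to cutl-18, begins 56 bp from the pooled summit.

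The pair of highest replicate 2 entries in the member windows lay at tRNA genes and had no counterpart in replicate 1. At cutl-23 (WBGene00021343, chrIII:5770185-5774703) the summit 277 bp upstream had rank 2106 in the pooled list (signal 40.1) and rank 1479 in replicate 2 (signal 31.5). It fell 4 bp inside the tRNA-Leu gene WBGene00022898 (chrIII:5769904-5769985, 82 bp), and a WGATAR match lies 45.5 bp from it. At cutl-28 (WBGene00018256, chrIV:684497-688340) the summit had rank 7725 in the pooled list at 1489 bp upstream (signal 22.3) and rank 2537 in replicate 2 at 1490 bp upstream (signal 23.6). The tRNA-Asp gene WBGene00023038 (chrIV:683063-683134, 72 bp) begins 56 bp downstream of the replicate 2 summit, and a WGATAR match lies 0.5 bp from it. tRNA genes have near-identical copies elsewhere in the genome, and how reads were divided among copies is not given in the sources used here.

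Counted from 3000 bp upstream to the 3′ end of the gene, the 40 loci held 103 pooled, 48 replicate 1 and 15 replicate 2 summits. Those of rank 3000 or better numbered 2, 1 and 4. Of these, 2 of 2, 1 of 1 and 3 of 4 lay within 150 bp of a tRNA, snoRNA or snRNA gene, the exception being the edge summit of cut-2. Over the whole lists, 5.5% of pooled, 4.93% of replicate 1 and 5.27% of replicate 2 summits of rank 3000 or better lay so close to such a gene, and 3.35% of IDR summits did. At all ranks the counts at the loci were 3 of 103, 1 of 48 and 3 of 15, all at cutl-18, cutl-23 and cutl-28. The whole-list shares at all ranks were 1.43% of pooled, 1.94% of replicate 1 and 3.62% of replicate 2 summits. The replicate 1 count is near that background, and no interval was computed for any count at the loci. The lists recount the same places, so their counts are not independent and are no result about the family. The part these RNA genes play in the signal was not tested.

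**Figure D3:**
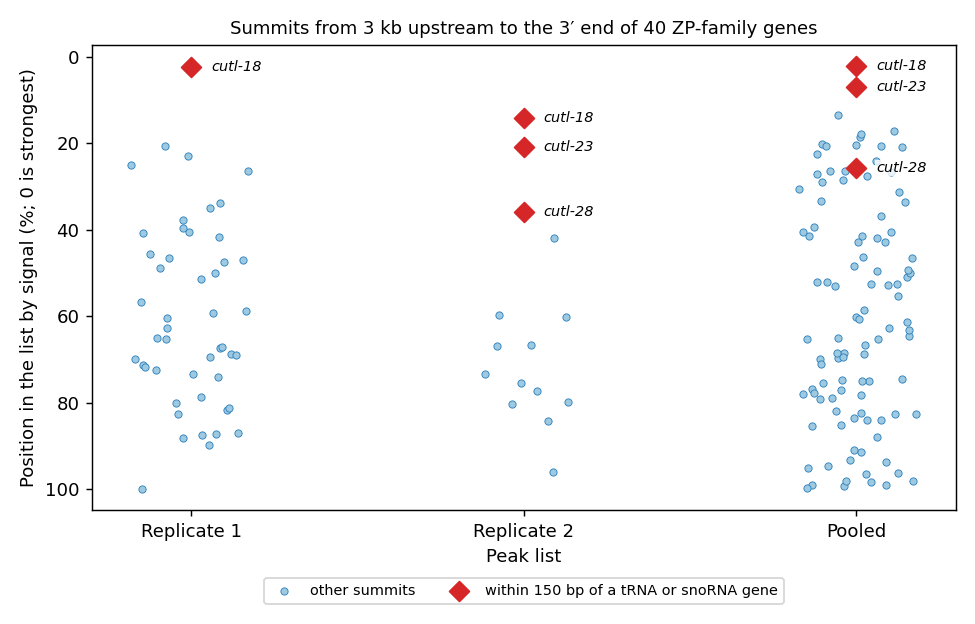
Position in its list, in percent with 0 the strongest, of each summit from 3 kb upstream to the 3′ end of the 40 genes, for the 3 longer lists; red diamonds lie within 150 bp of a tRNA or snoRNA gene, and the sideways spread has no meaning. In each list the diamonds of cutl-18 and cutl-23, where present, stand above every blue summit, while the cutl-28 diamond does so in replicate 2 but not in the pooled list.

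The 3 printed small RNA stretches, picked because they lie at RNA genes, each hold a pattern that RNA polymerase III genes carry. At cutl-23 and cutl-28 the stretch spans a whole tRNA gene, so a match there came with the choice of stretch. GTTCNANNC, searched on both strands, was present in each: inside the tRNA genes at cutl-23 and cutl-28, and 11 bases before the annotated start of the snoRNA gene at cutl-18. A second match at cutl-18 lies inside the snoRNA gene on the other strand, and cutl-23 has 2 matches in its tRNA gene. The longest run shared by cutl-18 and cutl-28 was GTTCAATTCCCG, of 12 bases. That of cutl-23 and cutl-28 was CTATCTCTTT, of 10 bases, which holds a WGATAR match on the other strand. That of cutl-18 and cutl-23 was TTTCGGTGG, of 9 bases. The pattern is short and common: it lay within 150 bp of 12.7% of pooled and 12.7% of replicate 2 summits of rank 3000 or better, of 12.2% in replicate 1 and of 10.3% of IDR summits. Those shares are for 150 bp to each side of any summit, while the printed stretches run past the end of an RNA gene. They are therefore no background for the 3 stretches, and a match is a description of letters.

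Because the members are long genes, with a median of 4395 bp against 2027 bp for all genes, their bodies beyond the window were counted as well. All 40 reach beyond it, as do 16311 genes in all. No member held an IDR summit there (0 of 40), against 1.46% of those genes. A summit of the equally large top set of the pooled list lay there in 1 of 40, cutl-18, against 1.29% of those genes. Both counts are near the background. At any rank, 26 of 40, 15 of 40 and 4 of 40 members held a pooled, replicate 1 or replicate 2 summit there, against 40.8%, 27.0% and 10.2% of the genes. The background was not matched for gene length, which is greater in members, so these counts are no result about the family. Of the 42 pooled summits concerned, 24 were in exons and 18 in introns.

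Within the windows, most summits of each list were upstream of the start. The windows reach 3000 bp upstream and 1000 bp downstream, so summits spread evenly over them would also lie mostly upstream. Placement was not counted over all genes, so the values below are no result about the family. Of 61 pooled summits, 43 were upstream of the start and 19 within 500 bp of it, and 31 were intergenic, 12 intronic and 18 exonic. Of 26 replicate 1 summits, 19 were upstream and 12 within 500 bp, and of 11 replicate 2 summits, 8 were upstream and 4 within 500 bp. A member's own 5′ end was the nearest one for 49 of 61, 20 of 26 and 8 of 11, so some summits belong as well to neighbours. The highest signal in a member window was 40.1 in the pooled list, 12.5 in replicate 1 and 31.5 in replicate 2.

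Few members have a GATA site close to the start. WGATAR occurred from 250 bp upstream to 50 bp downstream in 13 of 40 members (32.5%, interval 18.6 to 49.1%), against 54.5% of all genes. TGATAA, a stricter form that is part of WGATAR, occurred there in 4 of 40, namely cut-2, cut-4, cut-6 and cutl-25 (10%, interval 2.79 to 23.7%), against 30.2% of all genes. In the 1000 bases upstream, TGATAA occurred in 25 of 40 (62.5%, interval 45.8 to 77.3%), against 66.0% of all genes, which is near the background. The mean number of WGATAR matches was 0.475 in members and 0.856 in all genes in the 300 bases around the start. In the 1000 bases upstream it was 2.35 in members and 2.62 in all genes, so the gap was widest next to the start. Both strands were searched, and the annotated 5′ end was the start codon itself in 4 members and more than 100 bp before it in 9. Trans-splicing in the nematode removes the true 5′ end of many transcripts, so the annotated end can lie inside the real transcript.

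**Figure D4:**
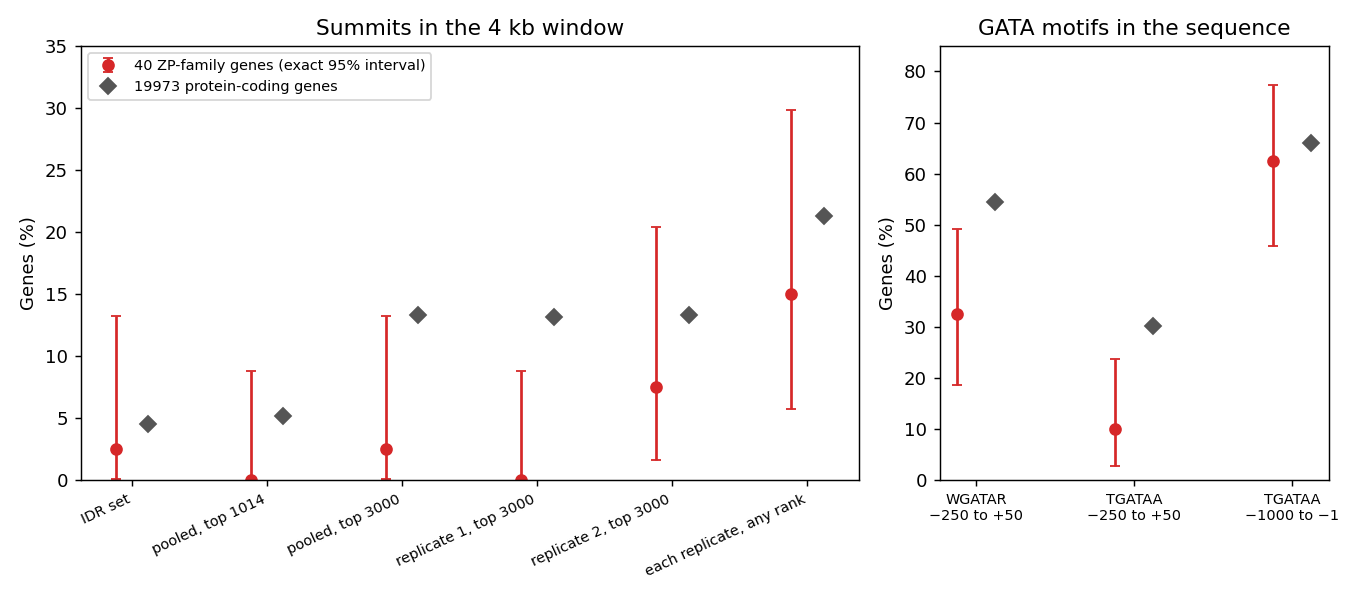
Left, percent of the 40 ZP-family genes (red, exact 95% interval) and of all 19973 protein-coding genes (grey) with a summit in the window, by list and rank limit; right, percent with a GATA motif, by motif and by bases relative to the 5′ end. The grey value is above the red interval for the pooled and replicate 1 lists at rank 3000, and for both motifs in the 300 bases at the start.

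The distance from each TGATAA site to the nearest summit was taken as well, for members alone. Of 38 TGATAA sites in the 1000 bases upstream of 25 members, none lay within 50 bp of an IDR summit, 2 within 50 bp of a pooled summit, 1 of a replicate 1 summit and none of a replicate 2 summit. One of the pooled pairs was at cut-1, 17 bp from the summit of rank 29931, and the other at cut-4, 30 bp from the summit of rank 20821. cut-6 had 4 WGATAR at its start, of which 2 were TGATAA, and no summit in its window in any list. fbn-1 had 3 WGATAR there.

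Read from the summits, WGATAR within 50 bp was about as frequent at members as elsewhere. It was found at 13 of 61 pooled summits (21.3%, interval 11.9 to 33.7%), against 25% of summits in the windows of all genes. In replicate 1 it was found at 9 of 26 (34.6%, interval 17.2 to 55.7%), against 26.5%. In replicate 2 it was found at 4 of 11 (36.4%, interval 10.9 to 69.2%), against 31.7%. Each interval holds the value for all genes. For TGATAA the members had 3 of 61 pooled summits (4.92%), 3 of 26 replicate 1 summits (11.5%) and 0 of 11 replicate 2 summits, against 12.6%, 13.7% and 18.2% at summits of all genes. The 1 member IDR summit had no WGATAR within 50 bp, where 50.3% of the 632 IDR summits in gene windows did.

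Members and other genes lay at similar distances from IDR peaks. The distance from the 5′ end to the nearest IDR summit had a median of 42998 bp in members and 47010 bp in all genes. It was 1466 bp for cut-2, 3848 bp for cutl-1 and 5860 bp for cutl-6, and 493246 bp for cutl-4 at the far end. Within 10 kb there were 6 members, against 15.7% of all genes. The share is 6 of 40 and near the background.

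Other genes linked to the apical matrix were counted the same way for comparison. They come from 2 lists put together from general knowledge, with earlier results of these data known. The first holds 25 genes taken as partners of ZP proteins or of the same layers. Among them are secreted lipocalins, leucine-rich repeat proteins and patched-related proteins, and not all are matrix components. Of these, 1 had an IDR summit (4%, exact 95% interval 0.101 to 20.4%), against 4.47% of all genes, and 1 a summit in the top set of the pooled list (4%, interval 0.101 to 20.4%), against 5.14%. A pooled summit of rank 3000 or better was found for 2 (8%, interval 0.984 to 26.0%), against 13.3% of all genes, and a summit of each replicate for 6 (24%, interval 9.36 to 45.1%), against 21.3%. All 4 shares are near the background. The 1 with an IDR summit was spc-1, at 802 bp upstream with a signal of 59.4 and rank 544. The same gene gave the count in the top set of the pooled list. It encodes alpha-spectrin under the epidermal membrane, which is not a matrix protein. The other at rank 3000 was let-4, which encodes a leucine-rich repeat protein of the excretory duct and epidermis.

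The second list holds 20 genes for the crosslinking, folding or cutting of matrix proteins, not all of which encode enzymes. Of these, 4 had an IDR summit (20%, interval 5.73 to 43.7%), against 4.47% of all genes, and 3 a summit in the top set of the pooled list (15%, interval 3.21 to 37.9%), against 5.14%. A pooled summit of rank 3000 or better was found for 7 (35%, interval 15.4 to 59.2%), against 13.3% of all genes, and a summit of each replicate for 7 (35%, interval 15.4 to 59.2%), against 21.3%. The background lay inside the interval for the top set of the pooled list and for both replicates, and below it for the other counts. cpz-1, a cathepsin Z protease gene, had IDR summits 511 bp downstream (signal 89.5) and 62 bp upstream (signal 73.1). mlt-7, a peroxidase gene needed for molting, had them 1734 bp (signal 68.0) and 109 bp upstream (signal 48.6). bli-4, a proprotein convertase gene that matures collagens, had one 2016 bp upstream (signal 53.1), and nas-7, an astacin protease gene, had one 2781 bp upstream (signal 51.9) that overlapped no peak of the pooled or replicate lists. The IDR signals at these genes ran from 48.6 to 89.5, on both sides of the 61.1 median of the set. The difference between this list and the ZP family was not tested, and the list was put together with results of these data known.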

How the data were processed

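The members, gene lists and counts were chosen with earlier results of these data known. The authors deposited peak lists in the narrowPeak layout with a signal value per peak. Per the deposited records, ChIP reads and control reads, both aligned, entered the replicate and pooled lists, from which the IDR set followed. On ce11, however, the rows of the IDR set are not rows of the pooled list. The IDR set is therefore not a plain subset of the lists used here. Which aligner and peak caller were used is not given in the sources used here. Read depth is unknown. From these lists the summits on ce11 were assigned to genes of Ensembl release 115 in a window with 3000 bp before the 5′ end and 1000 bp after it; 1 summit can count for several genes. Ranks follow the signal within a list, and peaks overlap if they share at least 1 bp. Intervals are exact (Clopper-Pearson, 95%). Sequence, and the products of tRNA genes, came from RefSeq on the same assembly, and coordinates are 1-based. The gene assignment and motif search were tested on simulated data. Python 3.11.15 with numpy 2.4.6, scipy 1.17.1, pandas 2.3.3 and matplotlib 3.10.9 was used. The labels call the 2 samples biological replicates.

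Named in any case were the cut genes, noah-1, noah-2, fbn-1, let-653 and dyf-7, together with every member with an IDR summit, a pooled summit among the 1014 highest, or a summit of rank 3000 or better in both replicates. cutl-1, cutl-11, cutl-12, cutl-17, cutl-18, cutl-20, cutl-23, cutl-28 and cutl-29 fall outside this rule. They, the small RNA genes, the GTTCNANNC pattern, the gene bodies and the protein features were picked with their values in view. Alternatives tried were other windows, any transcript start, nearest gene only, any base of the peak, other list lengths and sets, other motif settings and leaving out 1 replicate; gene bodies and overlapping replicate peaks were added after seeing the data. The lists on ce10 were not used here.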

Additional observations from a re-analysis of the deposited data

How the results depend on the processing

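Of 30 alternatives, 16 left their count within 1.5 times of the reported one and 14 moved it. The 1 member with an IDR summit became 0 with a window of 500 bp upstream to 250 bp downstream, with the 507 IDR peaks of highest signal, with IDR peaks overlapped in each replicate, with an equal number of highest-signal pooled peaks, and with the highest peaks of 1 replicate alone (lowest 0, highest 0). Over all genes the main share of 4.47% became 1.68% with that window and 4.1% with IDR peaks overlapped in each replicate. The 6 members with a summit of each replicate became 1 with a window of 1500 bp upstream to 500 bp downstream, 0 with the 500 and 250 bp window, 0 with the 3000 highest-signal peaks of each replicate, 0 with as many as the IDR set holds, 2 with overlapping replicate peaks and 12 with the gene body added. Of these settings only the overlapping replicate peaks were counted over all genes (17.5%), so the other counts have no background beside them. The 0 members in the equally large pooled set became 1 with the gene body (cutl-18), against 5.94% of all genes. They became 1 with the 3000 highest (cutl-23), against 13.3% of all genes. The gene body and the overlapping peaks were chosen after seeing the data. The member IDR summit had no WGATAR at 25, 50 or 100 bp and no TGATAA, and 3 further alternatives gave no value for it, since no member summit was left. No paired analysis was possible because the study has 1 group. With 40 genes, 1 gene is 2.5% and counts under 3 carry little weight.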
